A study of Mus musculus with 15 samples.

Results

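The genes described here are 32 enzymes and regulators of cholesterol and fatty acid synthesis, chosen by name for their place in these pathways. No measured value enters that choice as a criterion, but earlier results of these data were known when it was made. Of these, 31 were measured by a probe set carrying their symbol alone, among 19937 genes tested, and Acat2, which makes the acetoacetyl-CoA that enters the sterol pathway, was not analysed here. The samples were 15 preparations of sorted bone marrow progenitors from female C57BL/6 mice, hybridised to Affymetrix Mouse Gene 1.0 ST arrays, and the study sought genes that mutant Cebpa deregulates ahead of leukaemia. Cebpa encodes C/EBPα, a transcription factor of the myeloid lineage. Both populations were Lin-, Sca1-, cKit+, CD150- and CD41-. PreGMs (pre-granulocyte-macrophage progenitors) were in addition negative for FcgRII and Endoglin, and GMPs (granulocyte-macrophage progenitors, a later stage) were positive for FcgRII. All cells were taken 3 weeks after conditional knockout, and the labels used here give no age.

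The 15 arrays form 5 groups of 3: GMP fl/p30 and GMP fl/BRM2 with their control GMP fl/+, and preGM fl/p30 with its control preGM +/+. All groups carried the Mx1-Cre transgene by their labels (the label of the preGM +/+ mice spells it Mx1Ce), including both control groups. The Mx1 promoter is induced by interferon and is not restricted to myeloid cells. The floxed allele is the one removed by Cre, which leaves the p30 allele (short C/EBPα isoform only) or the BRM2 allele (altered basic region) as the remaining copy. The GMP controls were fl/+, with 1 normal allele beside the floxed one, and the preGM controls +/+, so genotype differed between the control groups. By the animal numbers in the labels, the same 3 mice gave the preGM fl/p30 and the GMP fl/p30 arrays, while each other group had mice of its own.

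Cholesterol is built from acetyl-CoA through mevalonate, the isoprenoid diphosphates, squalene and lanosterol, and fatty acids are built from the same acetyl-CoA, then elongated and desaturated. Both sets of enzymes are transcribed under SREBP factors, membrane-bound proteins that Scap escorts to the Golgi for cleavage when sterols are low and that Insig proteins retain in the endoplasmic reticulum when sterols are high. Dividing progenitors need both products for new membrane.

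RefSeq promoter windows of build GRCm38.p6, which run from 250 bases before to 50 bases after an annotated start, were held for 25 of the 31 measured genes (33 windows). The letters TCACCCCAC, a form of the sterol element that SREBP factors bind, were searched on both strands and were found in the Hmgcs1 window alone, which is 3.03% of the member windows against 0.551% of all 32851 windows. With 1 letter freed (TCACNCCAC, which includes the first motif) the share stayed at 3.03% against 1.242%. CCAAT, the box bound by NF-Y, was found in 66.67% of the member windows and in 37.41% of all windows, and 21 of the 25 genes had it. TTGCNNAA, letters like those C/EBP factors bind, was found in 6.061% of the member windows (one of Dhcr7, and that of Nsdhl, in which the match overlaps a CCAAT box) and 10.8% of all windows. The windows printed here are those of Hmgcs1, which holds the sterol letters, of Acss2 and Fads2, and of Fasn, the 1 gene called in preGMs. Acss2 and Fads2 were called in both mutant GMP groups, as was Fads1, which is not printed. Each window is given 5′ to 3′ on the gene's own strand. Matches to TCACCCCAC and CCAAT (or its reverse complement ATTGG) are in capitals. Hmgcs1 lies at chr13:119690101-119690400 (plus strand), Acss2 at chr2:155517793-155518092 (plus strand), Fads2 at chr19:10101454-10101753 (minus strand) and Fasn at chr11:120824498-120824797 (minus strand).
Hmgcs1: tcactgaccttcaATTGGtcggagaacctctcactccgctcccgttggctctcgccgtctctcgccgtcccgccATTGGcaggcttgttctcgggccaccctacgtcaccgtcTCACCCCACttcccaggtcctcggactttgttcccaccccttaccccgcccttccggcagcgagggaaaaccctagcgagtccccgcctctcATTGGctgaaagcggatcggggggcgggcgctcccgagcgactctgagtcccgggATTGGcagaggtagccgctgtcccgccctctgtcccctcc
Acss2: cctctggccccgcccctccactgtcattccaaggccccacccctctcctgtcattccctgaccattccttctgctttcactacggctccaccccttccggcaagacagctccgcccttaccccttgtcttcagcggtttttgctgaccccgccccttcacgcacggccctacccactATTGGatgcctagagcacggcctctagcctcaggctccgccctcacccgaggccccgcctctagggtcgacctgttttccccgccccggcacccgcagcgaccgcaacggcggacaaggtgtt
Fads2: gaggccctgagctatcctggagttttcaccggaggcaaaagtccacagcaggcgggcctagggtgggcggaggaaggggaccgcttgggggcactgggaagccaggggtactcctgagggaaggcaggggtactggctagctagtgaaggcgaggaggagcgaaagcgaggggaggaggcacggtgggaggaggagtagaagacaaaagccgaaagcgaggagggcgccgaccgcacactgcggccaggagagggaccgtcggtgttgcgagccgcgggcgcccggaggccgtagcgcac
Fasn: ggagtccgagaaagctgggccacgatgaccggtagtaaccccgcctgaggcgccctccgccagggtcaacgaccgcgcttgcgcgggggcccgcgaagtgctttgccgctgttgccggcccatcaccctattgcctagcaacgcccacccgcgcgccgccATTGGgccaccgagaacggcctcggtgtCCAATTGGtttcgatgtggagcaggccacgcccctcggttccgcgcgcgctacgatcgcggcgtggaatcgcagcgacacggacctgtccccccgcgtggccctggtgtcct
The Hmgcs1 window holds the sterol letters starting at -137 from the annotated start and 4 CCAAT boxes. The Acss2 window holds 1 CCAAT box at -73, and the Fads2 window holds none of the letters searched. In the Fasn window 2 of the 3 CCAAT matches overlap on opposite strands.

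Values are log2 expression values after RMA, a difference is a log2 difference with its standard error (SE), and a gene is called at a Benjamini-Hochberg adjusted p under 0.05 from limma over all 19937 genes. The array medians lay between 6.03 and 6.23. Genes of the sort gate and stage were checked first. Fcgr3, an Fc gamma receptor gene, was higher in GMP fl/+ than in preGM +/+ by 2.98 ± 0.20 and in GMP fl/p30 than in preGM fl/p30 by 2.35 ± 0.20, and both differences were called. Fcgr2b, which encodes FcgRII, was higher in GMP fl/+ by 1.48 ± 0.30 (called), while the 0.98 ± 0.30 between the fl/p30 stages was not called. Eng, which encodes Endoglin, read 7.51, 7.32 and 7.51 in preGM +/+ and 6.90, 6.59 and 6.65 in GMP fl/+. Its RNA was thus higher in the preGMs, which were sorted negative for the protein. Flt3, a receptor of less mature progenitors, had a difference of -3.99 ± 0.28 between GMP fl/+ and preGM +/+ and was called lower. The Cebpa probe set reads 8.10 to 8.70 in GMP fl/+ and 8.68 to 9.31 in GMP fl/p30, and it does not tell the alleles apart. Its difference there was 0.69 ± 0.18 and was called higher (limma adjusted p 0.0367). It reads 8.53 to 8.61 in preGM +/+ and 8.90 to 9.28 in preGM fl/p30, a difference of 0.52 ± 0.18 that was not called. In bulk samples, fewer cells of a type and less RNA per cell cannot be told apart. Labels name separate animals within each group, so the p-values rest on the spread between animals within groups, pooled over the 5 groups. The main fit does not use the pairing of the fl/p30 preGMs and GMPs.

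The 3 control GMP arrays differed from each other in these genes. The mean deviation of the 31 genes from their own 15-array means was 0.07 in GMP fl/+ replicate 1, -0.76 in replicate 2 and -0.44 in replicate 3, while the other 12 arrays lay between -0.12 and 0.25. Replicate 1 was the highest of the 3 control GMP arrays for 25 of the 31 genes (80.6%), against 33.7% of all genes. Replicate 2 held the lowest value of all 15 arrays for 15 of the 31, where 13.9% of all genes had their lowest value in that array. The median within-group SD of the 31 genes was 0.46 in GMP fl/+ and 0.16 to 0.21 in the other groups, and over all genes it was 0.20 in GMP fl/+. The plot of deviations by array shows the columns of replicates 2 and 3 as the darkest low block.

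**Figure D1:**
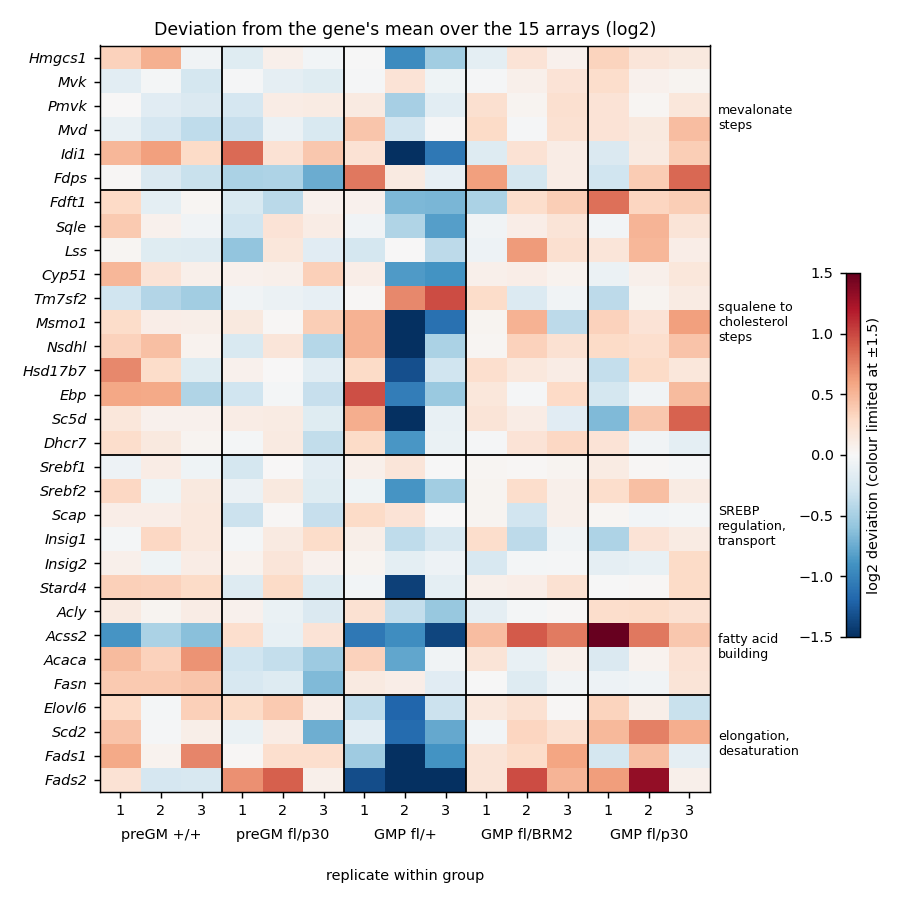
Deviation of each of the 31 genes (rows, by role) from its own mean over the 15 arrays, in log2, for each array (columns, replicates 1 to 3 within the 5 groups); red is above and blue below the mean, and colour is limited at 1.5. GMP fl/+ replicate 2 holds the lowest value of 15 of the 31 genes, GMP fl/+ replicate 1 does not share the drop in most sterol enzymes, and Fads2 and Acss2 are low in all 3 GMP fl/+ arrays.

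The gap between control GMP replicate 1 and the mean of replicates 2 and 3 was largest in Idi1 and the late sterol enzymes. It was 1.99 for Idi1, which interconverts the isoprenoid diphosphates, and 1.94 for Msmo1, which removes methyl groups from C4 of the sterol ring. It was 1.76 for each of Nsdhl, which acts with Msmo1, and Ebp, the sterol isomerase. The other probe set of Idi1 had a smaller gap, at 6.65, 5.70 and 5.99 in replicates 1, 2 and 3. The place of Idi1 thus rests on 1 of its 2 probe sets. The gap was 0.08 for Acss2, the cytosolic acetyl-CoA synthetase, and 0.54 for Fads2, a fatty acid desaturase. Tm7sf2, a sterol C14 reductase, ran the other way with a gap of -0.83. By group, the 17 sterol pathway enzymes had a mean deviation of 0.27 in replicate 1, -0.80 in replicate 2 and -0.38 in replicate 3, and the 8 fatty acid enzymes had -0.35, -0.95 and -0.78 in the same arrays. The mean of the fatty acid enzymes was thus negative in all 3 control GMP arrays and that of the sterol enzymes in 2 of them. These are list means and do not hold for each enzyme. In replicate 1 the citrate lyase Acly, the carboxylase Acaca and the synthase Fasn lay above their own means, as Fasn did in replicate 2. The 4 elongation and desaturation genes had -0.60, -1.40 and -1.01 in replicates 1, 2 and 3. The 4 genes that build the chain had -0.09, -0.49 and -0.54. Beside these values, a list of 51 small nucleolar RNA genes had mean deviations of -0.42, 0.84 and 1.23 in replicates 1, 2 and 3. The 9 genes of the G2 and M phases had 0.38, -0.17 and 0.05. The part of these lists in the differences between the control GMP arrays was not tested. Results against GMP fl/+ are therefore also given without replicate 1 and with replicate 1 as the only control array, the latter a setting chosen after these values were seen. With 1 control array, that array is assumed to vary like the other groups.

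**Figure D2:**
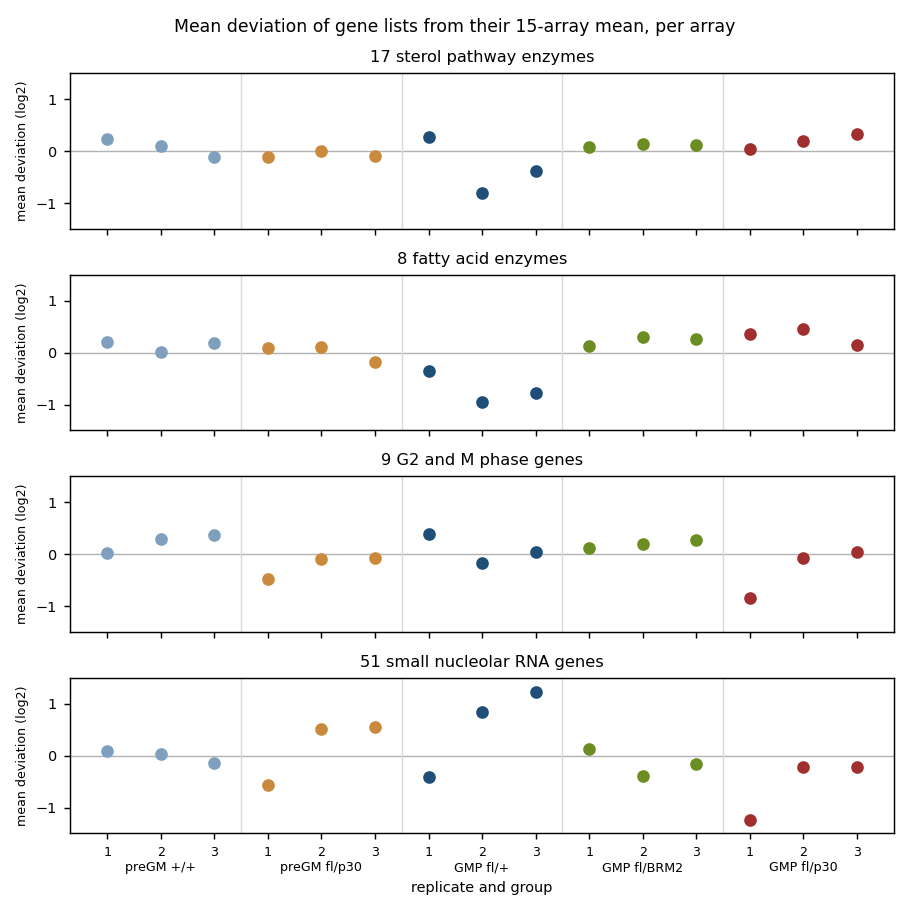
Mean deviation (log2) of 4 gene lists from their 15-array means in each array, with replicates 1 to 3 within the 5 groups on the x axis. In GMP fl/+ the sterol enzymes read 0.27, -0.80 and -0.38 and the fatty acid enzymes -0.35, -0.95 and -0.78, and the small nucleolar RNA genes are high in replicates 2 and 3 (0.84 and 1.23).

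The first comparison asked how the GMPs that keep only the p30 allele differ from control GMPs. Of the 31 genes, 6 were called higher in GMP fl/p30 and 0 lower, where 4.69% of all genes were called higher and 1.37% lower. The 6 were the desaturases Fads2, Fads1 and Scd2, the acetyl-CoA synthetase Acss2, the squalene synthase Fdft1 and the SREBP-2 gene Srebf2. The median difference of the 31 was 0.49 (all genes -0.04), and 27 of 31 differences were positive (41.9% of all genes). The arrays of GMP fl/p30 all lay above those of GMP fl/+ for 10 of the 31, where this held for 9.16% of all genes. Without GMP fl/+ replicate 1, 16 genes were called higher (10.8% of all genes) and 1, Tm7sf2, lower (4.64%). With replicate 1 as the only control, Acss2 and Fads2 were the 2 genes called higher (1.22% of all genes), and the median of the 31 was -0.03. Leaving out control replicate 2 left 3 called higher, Acss2, Scd2 and Fads2 (2.89% of all genes). The same 3 genes were called without control replicate 3 (3.15%) and without mutant replicate 2 (2.50%).

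Fads2, which desaturates polyunsaturated fatty acids at their first step, had the largest difference of the 31. Its values were 7.25, 6.89 and 6.54 in GMP fl/+ and 9.21, 9.90 and 8.66 in GMP fl/p30. The groups did not overlap, and the lowest mutant array stood above the highest control array by more than the range of the controls. The difference was 2.37 ± 0.30, a 5.15-fold change, with an adjusted p of 0.000401 in limma. It was 2.54 without control replicate 1 and 2.01 against replicate 1 alone, and it remained called in 15 of 15 fits that each left out 1 array.

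Acss2 makes acetyl-CoA from acetate in the cytosol, a supply line for both pathways. Its values were 6.28, 6.42 and 5.97 in GMP fl/+, around the array medians, and 9.01, 8.14 and 7.75 in GMP fl/p30. All 3 control arrays were alike and low, and the mutant arrays spread over more than a log2 unit, with replicate 1 the highest of all 15 arrays. The difference was 2.08 ± 0.25 (4.23-fold, limma adjusted p 0.000232). It was 2.11 without control replicate 1 and 2.02 against replicate 1 alone, close to the value with all 3, and it too remained called in 15 of 15 leave-outs.

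Scd2, a stearoyl-CoA desaturase that makes monounsaturated fatty acids, read 8.86, 7.87 and 8.25 in GMP fl/+ and 9.50, 9.77 and 9.56 in GMP fl/p30. The mutant arrays were tight and all above the controls, which differed among themselves by about a log2 unit. The difference of 1.29 ± 0.24 (2.44-fold) had an adjusted p of 0.00546 in limma and was called in 15 of 15 leave-outs. It was 1.55 without control replicate 1 and 0.75 (adjusted p 0.249) against replicate 1 alone. Fads1, which carries out a later desaturation of polyunsaturated fatty acids, read 6.85, 5.82 and 6.49 in GMP fl/+ and 7.13, 7.83 and 7.25 in GMP fl/p30. Its lowest mutant array was close to the highest control array. The difference was 1.02 ± 0.25 (limma adjusted p 0.0271), and the call was lost when control replicate 2, control replicate 3 or mutant replicate 2 was left out, where the highest adjusted p was 0.117. Against replicate 1 alone it was 0.56.

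Srebf2, the gene of SREBP-2, the main activator of the sterol enzymes, read 7.96, 7.14 and 7.50 in GMP fl/+ and 8.29, 8.47 and 8.14 in GMP fl/p30. The mutant arrays were all higher, and control replicate 1 was the nearest to them. The difference was 0.77 ± 0.18 (1.70-fold, limma adjusted p 0.0202). Fdft1, which joins farnesyl units into squalene, read 8.12, 7.38 and 7.37 in GMP fl/+ and 8.89, 8.38 and 8.42 in GMP fl/p30. Here too control replicate 1 was close to the mutant arrays and replicates 2 and 3 were lower. The difference was 0.94 ± 0.25 (limma adjusted p 0.0367), and the gene's other probe set gave 1.07. Both calls were lost when replicate 2 or 3 of the controls, or replicate 1 or 2 of GMP fl/p30, was left out, and that of Fdft1 also without preGM +/+ replicate 3 (adjusted p up to 0.0883 for Srebf2 and 0.161 for Fdft1). Against control replicate 1 alone the differences were 0.34 for Srebf2 and 0.45 for Fdft1.

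**Figure D3:**
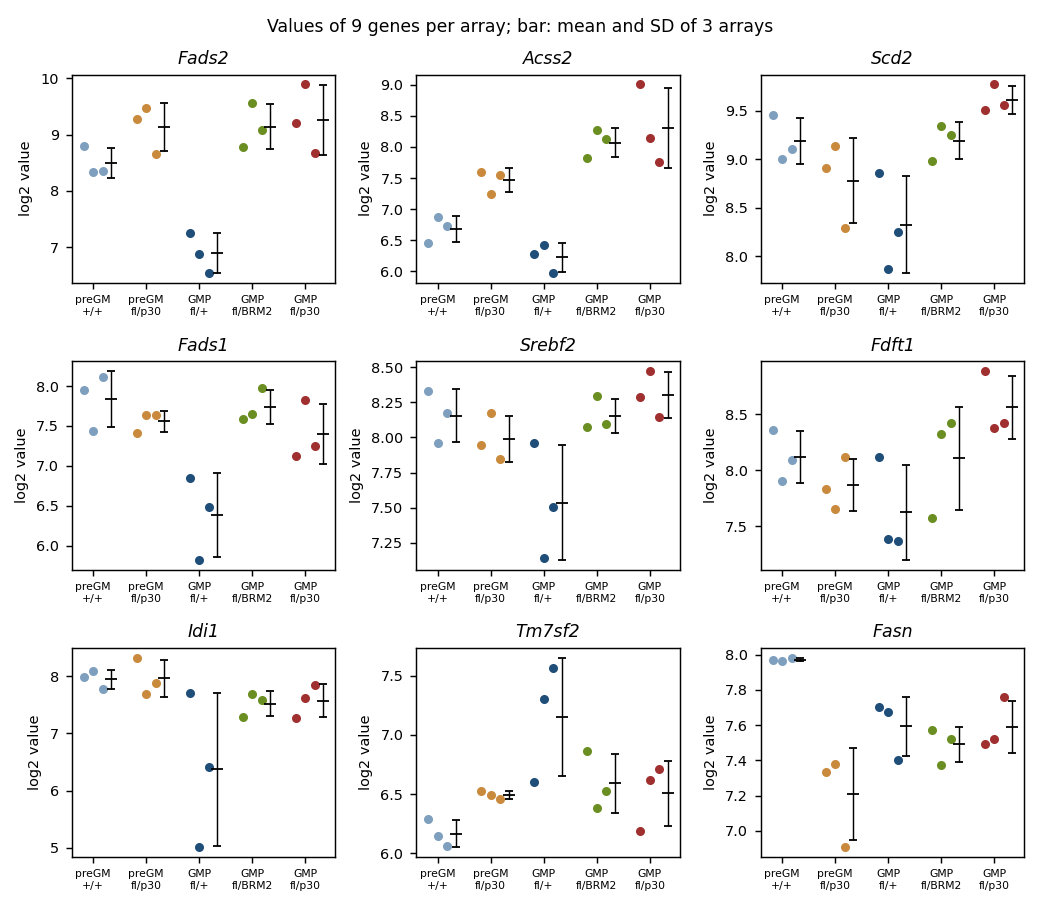
Log2 value of 9 genes in each array (points) with the mean and SD of the 3 arrays of each group (bar to the right of the points); each panel has its own y range. Fads2 and Acss2 are low in all 3 GMP fl/+ arrays (6.54 to 7.25 and 5.97 to 6.42). In the Idi1 probe set shown, control replicate 1 (7.70) lies among the mutant arrays and replicate 2 (5.01) far below them. In its other probe set, not shown, replicate 2 read 5.70 and the lowest mutant GMP array 5.84.

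The other sterol enzymes were not called against all 3 control arrays. Control replicate 1 was the highest of the 3 for 14 of the 17 sterol enzymes, the exceptions being Lss, Mvk and Tm7sf2. Hmgcs1, which makes HMG-CoA, read 8.42, 7.49 and 7.91 in GMP fl/+ and 8.76, 8.61 and 8.58 in GMP fl/p30. Its groups did not overlap, and its difference of 0.71 ± 0.20 narrowly missed the threshold (limma adjusted p 0.0507). Idi1 read 7.70, 5.01 and 6.40 in GMP fl/+ and 7.26, 7.61 and 7.84 in GMP fl/p30. Its control arrays spanned more than 2 log2 units with replicate 1 inside the mutant range, and the difference of 1.20 ± 0.45 was not called. The other Idi1 probe set gave 0.34 for the same difference, so the size is uncertain. Msmo1 read 8.38, 6.13 and 6.75 in GMP fl/+ and 8.21, 8.07 and 8.48 in GMP fl/p30. Nsdhl read 8.94, 6.42 and 7.94 in GMP fl/+ and 8.71, 8.67 and 8.84 in GMP fl/p30. In both, control replicate 1 stood within or above the mutant range and the differences (1.17 ± 0.40 and 0.97 ± 0.42) were not called.

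Among the other sterol steps, Sqle (squalene epoxidase) differed by 0.66, Cyp51 (lanosterol demethylase) by 0.60, Lss (lanosterol synthase) by 0.48 with all its mutant arrays above the controls, Sc5d (a desaturase of the sterol ring) by 0.58 and Hsd17b7 (a sterol ketone reductase) by 0.47, none of them called. The mevalonate kinases Mvk and Pmvk differed by 0.08 and 0.31, the decarboxylase Mvd by 0.23 and farnesyl diphosphate synthase Fdps by 0.05. The last enzymes, Ebp and Dhcr7, differed by 0.26 and 0.23. Tm7sf2 had a difference of -0.65 ± 0.21 (adjusted p 0.0873 in limma), the lowest of the 31. Its control values were 6.60, 7.30 and 7.56, with replicate 1 inside the mutant range of 6.19 to 6.71. Without control replicate 1, Hmgcs1, Pmvk, Idi1, Sqle, Cyp51, Msmo1, Nsdhl, the sterol carrier Stard4, the citrate lyase Acly and the elongase Elovl6 were called higher beside the 6 genes above, with differences from 0.46 (Pmvk) to 1.86 (Idi1).

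The regulators apart from Srebf2 showed little. Srebf1 (SREBP-1), Scap, Insig1 and Insig2 had differences of -0.04, -0.18, 0.13 and 0.07, and none of them was called against all 3 arrays, without replicate 1 or against replicate 1 alone. Fasn, the fatty acid synthase, read 7.71, 7.68 and 7.40 in GMP fl/+ and 7.49, 7.52 and 7.76 in GMP fl/p30, which overlap. Acaca, the acetyl-CoA carboxylase, differed by 0.18 and by -0.03 in its other probe set. Of the 4 elongation and desaturation genes, 3 were called, and of the 4 genes that build the chain, Acss2 alone was.

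**Figure D4:**
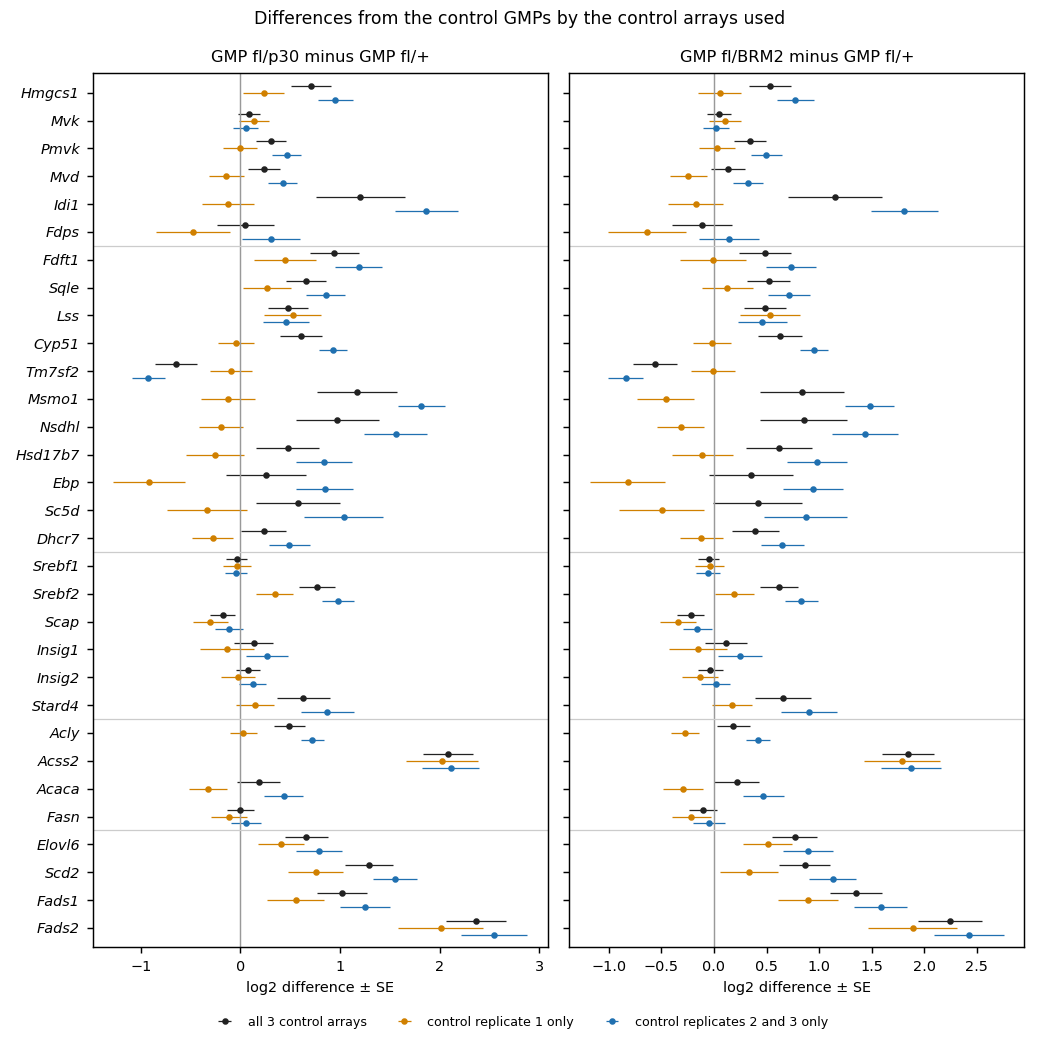
Log2 difference ± SE of each of the 31 genes from the control GMPs, for GMP fl/p30 (left) and GMP fl/BRM2 (right), against all 3 GMP fl/+ arrays, replicate 1 only, or replicates 2 and 3 only. Acss2 (2.08, 2.02 and 2.11 at left) and Fads2 (2.37, 2.01 and 2.54 at left) lie far from 0 in every setting, and Idi1 moves from 1.86 to -0.12 at left when replicate 1 is the only control.

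The second comparison asked the same of GMPs that keep only the BRM2 allele. It uses the same 3 control arrays, so the values of both mutants against them are not independent. Of the 31 genes, 3 were called higher, Fads2, Fads1 and Acss2, and 0 lower, where 1.89% of all genes were called higher and 0.642% lower. The median difference was 0.48 (all genes -0.02), and the arrays lay wholly above the controls for 7 of 31, against 6.74% of all genes. Without GMP fl/+ replicate 1, 16 were called higher (7.64% of all genes) and Tm7sf2 lower (3.48%), and with replicate 1 as the only control Acss2 alone was called higher (0.431%), with a median of -0.04 over the 31.

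Fads2 read 8.77, 9.56 and 9.09 in GMP fl/BRM2, all above the highest control value of 7.25. The difference was 2.25 ± 0.30 (4.75-fold, limma adjusted p 0.00111), and against replicate 1 alone it was 1.89 with an adjusted p of 0.0758. Acss2 read 7.82, 8.26 and 8.12, all above the highest control value of 6.42, and differed by 1.85 ± 0.25 (3.60-fold, limma adjusted p 0.00114). Against replicate 1 alone it was 1.79. Both genes were called in 15 of 15 leave-outs. Fads1 read 7.58, 7.66 and 7.98, above the highest control value of 6.85, and differed by 1.35 ± 0.25 (2.56-fold, limma adjusted p 0.00962). Its call was lost without GMP fl/BRM2 replicate 3 (adjusted p 0.0581), and against replicate 1 alone the difference was 0.89. Scd2 (0.86 ± 0.24), Elovl6 (0.77 ± 0.22), which lengthens saturated chains, and Srebf2 (0.62 ± 0.18) had arrays wholly above the controls with limma adjusted p-values of 0.0793, 0.0819 and 0.0878. Fdft1 read 7.58, 8.32 and 8.42 and overlapped with the controls.

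Marker lists of other cells differed in the same comparisons. In GMP fl/p30, 4.69% of all genes were called higher and 1.37% lower, and in GMP fl/BRM2 1.89% and 0.642%. Of 7 erythroid genes, 4 were called higher in each mutant. Their list level was -1.07 to -0.81 in GMP fl/+, -0.02 to 0.60 in GMP fl/p30 and -0.18 to 0.78 in GMP fl/BRM2. Of 10 secondary granule and neutrophil genes, 5 were called lower in GMP fl/p30 and 1 in GMP fl/BRM2. Their levels were 0.61 to 1.22, -0.88 to 0.40 and -0.59 to 0.49 in the same order. Of 6 T and NK genes, 4 were called higher in GMP fl/p30 and 1 in GMP fl/BRM2. Of 13 sort gate and stage genes 1 was called higher in GMP fl/p30, Itga2b (1.04 ± 0.25), which encodes CD41, and 0 were called in GMP fl/BRM2. Of 9 genes of the G2 and M phases 0 were called in either comparison, with median differences of -0.33 and 0.13. All these levels are mean deviations from the 15-array means, and their part in the results on the synthesis genes was not tested.

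The mutants were also set against each other. Between GMP fl/p30 and GMP fl/BRM2 0 of the 31 genes were called higher and 0 lower by limma, where 0.00502% and 0% of all genes were. At an unadjusted p under 0.05 the count was 0 of the 31, against 688 of all 19937 genes. The fit on these 6 arrays alone also called 0 of the 31 (0% of all genes). The fit with array weights called 0 of the 31 too, where 1.06% of all genes were called higher and 0.361% lower. The differences ran from -0.34 (Fads1) to 0.46 (Fdft1). Their 95% intervals were -0.53 to 0.77 for Fads2, -0.30 to 0.77 for Acss2 and -0.09 to 0.94 for Scd2, which include 0 and differences up to those bounds.

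In preGMs the fl/p30 arrays were set against +/+ arrays of other mice. Of the 31 genes, 0 were called higher and 1, Fasn, lower, where 0.647% of all genes were called higher and 1.03% lower. The median difference was -0.13 (all genes 0.03). Fasn read 7.97, 7.97 and 7.98 in preGM +/+ and 7.34, 7.38 and 6.91 in preGM fl/p30. The +/+ arrays were nearly identical and the fl/p30 arrays all lower. The difference was -0.77 ± 0.13 (limma adjusted p 0.0103), and the call was lost without preGM +/+ replicate 2 (adjusted p 0.0521).

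Acaca, whose product malonyl-CoA feeds Fasn, read 8.81, 8.68 and 9.01 in preGM +/+ and 8.03, 7.98 and 7.80 in preGM fl/p30. Its groups did not overlap, and its difference of -0.90 ± 0.22 just missed the threshold (limma adjusted p 0.0563), with -0.49 in its other probe set. Acss2 read 6.46, 6.87 and 6.72 in preGM +/+ and 7.60, 7.24 and 7.55 in preGM fl/p30, again without overlap, with a difference of 0.78 ± 0.25 (adjusted p 0.166 in limma). Fads2 read 8.80, 8.33 and 8.35 in preGM +/+ and 9.27, 9.48 and 8.66 in preGM fl/p30, which overlap, and differed by 0.64 ± 0.30 (adjusted p 0.361 in limma). Of the 17 sterol enzymes 0 were called, with a median difference of -0.09 and a range from -0.46 to 0.33. Beside these values, 3 of 10 secondary granule and neutrophil genes were called lower in preGM fl/p30, where 1.03% of all genes were. Their list levels were -1.09 to -0.87 against 0.27 to 1.23 in preGM +/+. Of 7 erythroid genes 0 were called. The fl/p30 arrays lay wholly above the +/+ arrays for 6 of these 7, where this held for 2464 of all 19937 genes. The erythroid list levels were 0.31 to 0.38 in preGM fl/p30 against -0.20 to 0.04 in preGM +/+. Of 8 mast, basophil and eosinophil genes 1 was called higher (Cpa3) and 1 lower (Hdc). Of 6 T and NK genes 1 was called higher (Lat), where 0.647% of all genes were called higher. Of 13 sort gate and stage genes 2 were called lower, Flt3 (-1.79 ± 0.28) and Csf1r (-2.04 ± 0.46). The fl/p30 arrays lay wholly lower for 7 of the 13, and for 2545 of all 19937 genes. The 9 genes of the G2 and M phases had a median difference of -0.49 with 0 called. In preGM +/+ the level of the B lymphoid list was 0.17, 0.35 and 2.01 in replicates 1, 2 and 3. Their part in the Fasn result was not tested.

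Between stages, the control arrays gave the most calls. Of the 31 genes, 1 was called higher in GMP fl/+ than in preGM +/+ and 8 lower, where 4.19% of all genes were called higher and 6.02% lower (836 and 1200 genes, or 458 and 1542 with each array centred on its median, which left the same 9 members called). The 8 were Fads2, Fads1, Scd2 and Elovl6, thus all 4 elongation and desaturation genes, with Hmgcs1, Idi1, Cyp51 and Srebf2. The median difference was -0.47 (all genes 0.08). Without GMP fl/+ replicate 1 the count was 18 lower (13.5% of all genes) and 1 higher (10.0%), and with replicate 1 as the only GMP control it was 0 lower (0.868%) and 0 higher (0.401%), with a median of 0.00. With preGM +/+ replicate 1 left out, 2 were called lower (2.22% of all genes), and 3 were with its replicate 2 left out (2.91%) or its replicate 3 (2.77%). Among the control GMPs, 2 were called when replicate 2 was dropped (2.75%) and 4 when replicate 3 was (4.25%), and dropping replicate 3 of GMP fl/BRM2, which enters through the shared spread, gave 5 (996 of all genes). The stages of these controls also differ in genotype, so stage and genotype cannot be told apart.

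Fads2 read 8.80, 8.33 and 8.35 in preGM +/+ against 7.25, 6.89 and 6.54 in GMP fl/+, a difference of -1.60 ± 0.30 (limma adjusted p 0.00655). Fads1 read 7.95, 7.44 and 8.12 in preGM +/+ against 6.85, 5.82 and 6.49 in GMP fl/+, a difference of -1.45 ± 0.25 (limma adjusted p 0.00382). For both desaturases every GMP control array lay below every preGM control array, and both calls held in 15 of 15 leave-outs. Against GMP replicate 1 alone they were -1.24 (adjusted p 0.188) and -0.99 (adjusted p 0.120). Tm7sf2 was the gene called higher, at 6.29, 6.14 and 6.07 in preGM +/+ and 6.60, 7.30 and 7.56 in GMP fl/+ (0.99 ± 0.21, limma adjusted p 0.0114), also in 15 of 15 leave-outs. Scd2 (-0.86), Elovl6 (-0.84), Cyp51 (-0.81), Hmgcs1 (-0.77), Srebf2 (-0.62) and Idi1 (-1.58) had limma adjusted p-values between 0.0285 and 0.042, and each was lost in 3 to 10 of 15 leave-outs, all 6 of them without GMP fl/+ replicate 2. Marker lists were counted in the same way, where 4.19% of all genes were called higher and 6.02% lower. Of 8 mast, basophil and eosinophil genes 5 were called higher in GMP fl/+, and of 7 erythroid genes 3 were called lower. Of 13 sort gate and stage genes 2 were called higher and 4 lower, and of 6 T and NK genes 1 and 1. Of 7 mature macrophage genes 1 was called higher. Of 7 B lymphoid and of 10 secondary granule and neutrophil genes 1 each was called lower. The part of these lists in the differences was not tested.

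In the fl/p30 animals, whose preGMs and GMPs are paired, 0 of the 31 genes were called higher in GMPs and 0 lower by limma, where 0.356% and 0.286% of all genes were. At an unadjusted p under 0.05 there were 7, against 2475 of all 19937 genes, and 25 of 31 differences were positive (55.6% of all genes), with a median of 0.21 (all genes 0.03). With the animal as a random replicate block 2 were called higher (1.84% of all genes), Acss2 (0.84 ± 0.25 in the unblocked fit) and Scd2 (0.83 ± 0.24), and with the animal as a fixed block 0 were (0.446%). Acss2 read 7.60, 7.24 and 7.55 in the preGMs and 9.01, 8.14 and 7.75 in the GMPs, so each GMP array lay above each preGM array. Fads2, which was lower in control GMPs than in control preGMs, read 9.27, 9.48 and 8.66 in fl/p30 preGMs and 9.21, 9.90 and 8.66 in fl/p30 GMPs. The ranges overlap, and the difference was 0.12 with a 95% interval of -0.53 to 0.77.

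Whether the p30 difference was the same at both stages, each against its own control, was tested as an interaction, the GMP difference minus the preGM difference. The control was fl/+ in GMPs and +/+ in preGMs, so stage and control genotype cannot be told apart in it. Of the 31 genes 0 were called in either direction by limma, where 0.00502% of all genes were called higher and 0% lower. At an unadjusted p under 0.05 there were 15, against 2616 of all 19937 genes, and 30 of 31 estimates were positive (43.6% of all genes) with a median of 0.72 (all genes -0.05). The largest were Fads2 at 1.72 ± 0.43 and Scd2 at 1.69 ± 0.34 (limma adjusted p 0.138 and 0.0787), and the 1 negative estimate was Tm7sf2 at -0.98. Without GMP fl/+ replicate 1, 14 were called positive (5.52% of all genes) and 1, Tm7sf2, negative (1.91%). With replicate 1 as the only GMP control the counts were 0 (0% of all genes) and 0 (0.00502%), and the median was 0.10. The random replicate block called Scd2 alone (0.346% of all genes), the fixed block called 0 of the 31 (0.120%), and leaving out GMP fl/p30 replicate 3 called Acss2 and Fads2 (0.527%).

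The order of the group means shows where each gene stood. For Fads2 the means ± SD (n = 3) were 6.89 ± 0.35 in GMP fl/+, 8.49 ± 0.27 in preGM +/+, 9.13 ± 0.43 in preGM fl/p30, then 9.14 ± 0.40 in GMP fl/BRM2 and lastly 9.26 ± 0.62 in GMP fl/p30, and the last 3 do not differ beyond their spread. For Acss2 they were 6.22 ± 0.23 in GMP fl/+, 6.69 ± 0.21 in preGM +/+, 7.47 ± 0.19 in preGM fl/p30, then 8.07 ± 0.23 in GMP fl/BRM2 and lastly 8.30 ± 0.65 in GMP fl/p30, and the last 2 overlap. For Scd2 they were 8.32 ± 0.50 in GMP fl/+, 8.78 ± 0.44 in preGM fl/p30, 9.18 ± 0.24 in preGM +/+, 9.19 ± 0.19 in GMP fl/BRM2 and 9.61 ± 0.14 in GMP fl/p30. GMP fl/+ was the lowest group for all 3 genes. For Fasn, by contrast, the lowest group was preGM fl/p30 (7.21 ± 0.26) and the highest preGM +/+ (7.97 ± 0.01), with the 3 GMP groups between 7.49 and 7.59.

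Other genes of these pathways were followed from a list of 58, of which 47 were measured. In GMP fl/p30 against GMP fl/+ 5 of the 47 were called higher and 0 lower, where 4.69% of all genes were called higher and 1.37% lower. They were the sterol exporters Abca1 (1.43 ± 0.25) and Abcg1 (0.63 ± 0.13), Mbtps1 (0.56 ± 0.14), the site-1 protease that cleaves SREBP, the phosphatidate phosphatase Lpin1 (0.65 ± 0.15) and Acadl (1.08 ± 0.21), which oxidizes long-chain fatty acids. Abca1 read 5.56, 6.00 and 6.05 in GMP fl/+ and 7.87, 7.32 and 6.72 in GMP fl/p30, with no overlap and with control replicate 1 the lowest, as it also was for Tm7sf2. In GMP fl/BRM2, Abca1 (1.02 ± 0.25) and Acadl (1.13 ± 0.21) were called higher and the sterol transporter Stard3 lower (-0.58 ± 0.12), where 1.89% of all genes were called higher and 0.642% lower. The efflux, storage and LXR group had 2 of 7 called in GMP fl/p30, the SREBP processing group 1 of 3, fatty acid oxidation 1 of 10, fatty acid supply and modification 1 of 12, and the isoprenoid branch and the uptake and traffic group 0 of 7 each, against the 4.69% of all genes.

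In preGM fl/p30 1 of the 47 was called, Fntb, a farnesyltransferase subunit (-0.67 ± 0.13), where 1.03% of all genes were called lower. Between the control stages 2 were higher in GMP fl/+ and 7 lower, where 4.19% of all genes were called higher and 6.02% lower. The lower ones were Vldlr, a lipoprotein receptor (-1.94 ± 0.30), the sterol carrier Apoe (-1.33 ± 0.24), the isoprenoid enzymes Ggps1 (-1.05 ± 0.24), Fntb (-0.55 ± 0.13) and Pdss2 (-0.68 ± 0.16), the acyl-CoA synthetase Acsl4 (-0.97 ± 0.26) and Abcg1 (-0.80 ± 0.13). The higher ones were Stard3 (0.60 ± 0.12) and Mlx (0.83 ± 0.22), a partner of the glucose-responsive factor Mlxipl. Vldlr alone was called between the stages of the fl/p30 animals too (-1.98 ± 0.30, with 0.286% of all genes called lower), and 0 of the 47 were called between the mutants or in the interaction.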

How the data were processed

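Per the labels' protocols, cKit-enriched marrow was sorted, RNA was extracted with RNeasy Micro, and 20 ng was amplified with Ovation Pico WTA V2 and biotin-labelled. The authors deposited log2 values made with RMA and affy, per the submitters' processing notes, with versions not given in the sources used here. Of 34760 probe sets, 21640 carried 1 symbol in the platform annotation, 1321 several and 11799 none. Each of 19937 genes was represented by its brightest single-symbol probe set. RefSeq GRCm38.p6 was used for names and promoter windows.

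A limma 3.58.1 (R 4.3.3) model of 5 group means over 15 arrays was fitted, with eBayes without trend; its degrees of freedom were 10 (residual) and 4.24 (prior). P-values were Benjamini-Hochberg adjusted over all genes within each of 7 comparisons, with calls at an adjusted p under 0.05. The limma script was tested on simulated data with independent arrays and 1 spread per gene for all groups. That test does not cover the larger spread of GMP fl/+ or the paired fl/p30 animals. Arrays have no depth, and 3 per group limit the precision: an exact permutation test of 3 against 3 cannot go below p = 0.1. All groups share 1 estimate of the spread, although GMP fl/+ varied more.

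The members and lists were chosen with earlier results of these data known. All 32 members could be named. Related genes were named where called, and the rest were counted. Marker lists for 7 cell types or states and for the sort gate, besides small nucleolar RNA genes, were checked, and those with values beside a result are given. The counts that follow are in the order GMP fl/p30 and GMP fl/BRM2 against GMP fl/+, and the shares of all genes are given with those comparisons. Mast, basophil and eosinophil genes had 2 of 8 called higher and 4 lower, then 2 higher and 2 lower. B lymphoid genes had 1 of 7 called higher in each, and mature macrophage genes 0 of 7 in each.

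The fl/p30 preGMs and GMPs are paired by the animal numbers in the labels. Across genes, the preGM and GMP arrays of 1 animal, each taken as deviations from the group mean, correlated at 0.334, 0.320 and 0.116, and the array of another animal gave 0.154 for the last.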

Additional observations from a re-analysis of the deposited data

How the results depend on the processing

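The alternatives were an intensity trend, array weights, median centring, genes at or above the median of gene means, averaged probe sets, the arrays compared alone, the animal as a replicate block, each array left out in turn and, chosen after seeing the data, GMP fl/+ replicate 1 as the only GMP control. No called gene changed sign under any of them. Of the 19 gene calls, 19 held under array weights, centring, the filter on dim genes, averaged probe sets and the random replicate block, 18 with the trend and 7 with the arrays compared alone, and 3 of the 18 that use GMP fl/+ held against replicate 1 alone.

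Leaving out 1 array gave 3 to 16 members called higher in GMP fl/p30 against GMP fl/+ (main 6) and 0 to 1 lower (main 0). In GMP fl/BRM2 it gave 2 to 16 (main 3) and 0 to 1 (main 0), in preGM fl/p30 0 to 1 higher (main 0) and 0 to 2 lower (main 1), between control stages 2 to 18 lower (main 8), and in the interaction 0 to 14 positive and 0 to 1 negative (main 0 and 0). The highest counts, 16, 16, 18 and 14, came without GMP fl/+ replicate 1. The lowest came without GMP fl/p30 replicate 2, GMP fl/+ replicate 2 or GMP fl/+ replicate 3 (3 genes in GMP fl/p30), GMP fl/BRM2 replicate 3 (2 in GMP fl/BRM2), preGM +/+ replicate 2 (0 in preGM) and preGM +/+ replicate 1 or GMP fl/+ replicate 2 (2 between control stages). Acss2 in preGM was called higher without GMP fl/p30 replicate 1, and Acaca lower without that array, GMP fl/+ replicate 1 or GMP fl/+ replicate 2.

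The array weights were uneven, at 0.33, 6.02 and 0.79 for GMP fl/p30 replicates 1, 2 and 3. They were 0.30, 0.33 and 1.49 for those of GMP fl/+. The weighted mean of GMP fl/p30 thus rests mostly on its replicate 2. Array weights raised the counts of all genes too. They gave 15 higher and 1 lower in GMP fl/p30 (12.2% and 8.20% of all genes), 10 and 1 in GMP fl/BRM2 (6.71% and 4.26%), 1 and 2 in preGM (2.34% and 3.51%), 9 higher between the fl/p30 stages (1197 of all genes), 16 lower between control stages (12.4%), and 14 and 1 in the interaction (6.65% and 3.34%). The arrays compared alone gave 2 higher in GMP fl/p30 (0.792% of all genes). In preGM they gave 1 higher, Acss2 (1.97% of all genes), and 2 lower, Acaca and Fasn (3.40%). Between control stages they gave 0 higher (1.22%) and 2 lower (2.52%). The filter on dim genes gave 2 lower in preGM (1.54% of the genes it kept). With replicate 1 as the only GMP control, 2 were higher in GMP fl/p30, 1 in GMP fl/BRM2, and 0 higher and 0 lower between control stages. The random replicate block gave 2 higher between the fl/p30 stages and 1 in the interaction, and changed no other count by over 1.5 times. The cause of these changes was not tested, apart from the arrays and genes each alternative leaves out. Signal near the array medians, as for Acss2 in GMP fl/+, limits the size of a difference that can be measured.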

Other observations

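Relatives of the called genes were looked up after the results on the members were seen, and they are given as values. Acss1, the mitochondrial counterpart of Acss2, was called higher in the fl/p30 GMPs, by 0.72 ± 0.15 over GMP fl/+ (limma adjusted p 0.00918). Its values were 6.86, 6.69 and 7.09 in GMP fl/+ and 7.79, 7.77 and 7.24 in GMP fl/p30, so the groups did not overlap, and in GMP fl/BRM2 the difference of 0.37 was not called. Fads3, which lies beside Fads1 and Fads2 in the mouse genome, was not called in any of the 7 comparisons and differed by 0.09 in GMP fl/p30 and 0.22 in GMP fl/BRM2. Scd1, the main hepatic desaturase of the Scd family, read 4.02 to 4.81 over all 15 arrays, below the array medians, and differed by 0.01 in GMP fl/p30, while Scd2 was called there. Lbr, the other sterol C14 reductase beside Tm7sf2, read 10.79, 10.27 and 10.33 in GMP fl/+ and was not called in any comparison, and its difference of -0.03 between control stages stands beside the 0.99 of Tm7sf2.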
